A study of Mus musculus with 36 samples.

Results

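Open chromatin of mouse dendritic cells was compared between cultures that received the ligand PAM and cultures that received depleted zymosan in its place, with the other ligands kept the same. The swap was made in 3 backgrounds, each with 2 libraries per group: PS against ZS, with SeV as the partner ligand, PcG against ZcG, with 3',3'-cGAMP as the partner, and PScG against ZScG, with both partners. These are 12 of the 36 libraries of the series, chosen by the ligand labels alone. All groups were dendritic cells grown from marrow of female C57BL/6J mice (strain label C57BL/6) aged 6 to 8 weeks, with 15 ng/mL GM-CSF and 6 h of stimulation, and 50000 cells were tagmented per library. Ligand doses are not given in the sources used here. The labels do not say whether the 2 libraries of a group came from separate animals or cultures, so p-values measure the spread between libraries, which may be technical.

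PAM is the usual short name of synthetic lipopeptides that mimic bacterial lipoproteins and are sensed by TLR2, which signals through MyD88, the IRAK kinases and IkB kinase to NF-kappaB and AP-1 factors. Zymosan is a yeast cell wall preparation; in its depleted form the Toll-like receptor ligands are removed and its beta-glucan is sensed by Dectin-1, which signals through the kinase Syk to CARD9, NFAT and EGR factors. The partner 3',3'-cGAMP activates STING, and SeV, the usual short name of Sendai virus, is sensed by RIG-I; both lead to type I interferon genes. ATAC-seq counts the insertions of a transposase, so a higher count at a locus means more accessible chromatin, not more transcript.

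The 12 libraries held 8181254 to 21985891 counts outside the mitochondrial genome, over 119464 tested peaks. The mitochondrial share of counts moved with the swap: it was 44.4% to 46.6% in the 6 libraries with PAM and 51.0% to 63.1% in the 6 with depleted zymosan, with no overlap. The ligand and this share cannot be told apart within the 3 swaps. Of 12 dendritic cell markers, 10 had a tested peak at a start site, with summed levels of 99.5 to 113 counts scaled to library size (CPM, TMM-scaled) with PAM and 102 to 127 with zymosan; 3 were lower with PAM in the mean swap and 0 higher. Macrophage markers, which GM-CSF cultures also hold, had a peak at 9 of 10 genes, with 169 to 193 CPM with PAM and 191 to 202 with zymosan, 3 higher with PAM and 2 lower. Of 9 neutrophil markers, 2 had a peak, S100a8 and Camp, and their summed level was 33.1 to 36.8 CPM with PAM and at most 27.1 with zymosan, both peaks being higher with PAM in the mean swap defined below; Ly6g, Mpo, Elane and 4 others had none. A peak was found at 3 of 8 T cell markers (8.62 to 15.9 CPM summed, 1 lower with PAM), 2 of 7 B cell markers (5.80 to 12.2 CPM) and 3 of 6 NK cell markers (10.2 to 18.7 CPM); the defining T cell genes Cd3e, Cd3d and Cd3g and the B cell genes Cd79a and Cd79b had none. In the mean swap, 12.1% of all tested peaks were higher with PAM and 10% with zymosan. Peaks within 1 kb of a start site or gene end made up 13.3% of all tested peaks. They made up 5.80% of the PAM calls and 38.1% of the zymosan calls. The part of these markers in the results was not tested. In bulk libraries a change in the share of a cell type and a change within a cell type cannot be told apart.

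Sequences are shown first for promoters whose accessibility differed in the same direction in all 3 backgrounds. They are the 250 bases before the start site, 5' to 3' on the gene's strand, from RefSeq for GRCm38.p6, and capitals mark letters that match a searched motif on either strand. The motifs were NF-kappaB (GGGA, any 4 bases, CC), AP-1 (TGANTCA), the cAMP response element (CRE, TGACGTCA) and the interferon response element (ISRE, GAAA, any 2 bases, GAAA). These 6 were chosen after values and motif matches were seen. A match describes letters and not binding. The first 4 promoters were more accessible with PAM; they belong to Il6, a pro-inflammatory cytokine, Nfkb2, an NF-kappaB subunit, Ebi3, a subunit of the cytokine IL-27, and Ifi205, an interferon-inducible gene of the AIM2-like family. The last 2 were more accessible with depleted zymosan; they belong to Retreg1, a receptor for autophagy of the endoplasmic reticulum, and Ddit3, a transcription factor of the endoplasmic reticulum stress response.
Il6, chr5:30012864-30013113, + strand, NF-kappaB at -44 to -34 (the pattern fits on both strands, 1 base apart) and AP-1 at -249 to -243: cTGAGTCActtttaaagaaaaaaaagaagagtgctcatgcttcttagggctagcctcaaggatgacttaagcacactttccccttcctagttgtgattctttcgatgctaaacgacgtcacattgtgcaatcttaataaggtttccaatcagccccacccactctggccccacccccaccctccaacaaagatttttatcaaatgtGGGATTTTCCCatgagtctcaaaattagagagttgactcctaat
Nfkb2, chr19:46304487-46304736, + strand, NF-kappaB at -39 to -30 and -10 to -1: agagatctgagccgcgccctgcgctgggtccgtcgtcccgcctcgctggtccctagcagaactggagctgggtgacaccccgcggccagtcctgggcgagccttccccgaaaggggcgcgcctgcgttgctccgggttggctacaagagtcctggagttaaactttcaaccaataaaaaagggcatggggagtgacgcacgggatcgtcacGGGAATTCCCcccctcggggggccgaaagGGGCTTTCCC
Ebi3, chr17:55952373-55952622, + strand, NF-kappaB at -44 to -35: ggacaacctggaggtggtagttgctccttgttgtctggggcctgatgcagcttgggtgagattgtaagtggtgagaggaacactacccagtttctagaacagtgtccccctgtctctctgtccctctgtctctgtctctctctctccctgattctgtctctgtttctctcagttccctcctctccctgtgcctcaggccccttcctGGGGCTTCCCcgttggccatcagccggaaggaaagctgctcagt
Ifi205, chr1:174031756-174032005, - strand, ISRE at -134 to -125: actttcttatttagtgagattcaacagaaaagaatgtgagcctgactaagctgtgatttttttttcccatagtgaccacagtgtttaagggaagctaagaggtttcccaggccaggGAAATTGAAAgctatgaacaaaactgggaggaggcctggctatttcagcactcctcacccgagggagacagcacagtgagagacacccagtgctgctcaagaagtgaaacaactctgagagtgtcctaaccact
Retreg1, chr15:25843048-25843297, + strand, CRE at -148 to -141: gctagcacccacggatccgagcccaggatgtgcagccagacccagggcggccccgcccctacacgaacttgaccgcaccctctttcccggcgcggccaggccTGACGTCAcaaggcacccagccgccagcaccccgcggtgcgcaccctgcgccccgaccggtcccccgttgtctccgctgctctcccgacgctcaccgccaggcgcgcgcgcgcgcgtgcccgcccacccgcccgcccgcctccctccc
Ddit3, chr10:127290543-127290792, + strand, AP-1 at -242 to -236: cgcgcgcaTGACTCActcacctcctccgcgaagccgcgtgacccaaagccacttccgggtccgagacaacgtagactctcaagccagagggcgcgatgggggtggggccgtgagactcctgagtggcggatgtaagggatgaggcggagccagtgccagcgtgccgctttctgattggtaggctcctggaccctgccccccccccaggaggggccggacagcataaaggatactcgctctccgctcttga

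The swap changed accessibility in each background. With SeV, 4996 peaks were more accessible with PAM (4.18% of the tested peaks) and 3555 with depleted zymosan (2.98%), or 7.16% in either direction, by edgeR's quasi-likelihood test at a Benjamini-Hochberg adjusted p under 0.05. With 3',3'-cGAMP the counts were 5601 (4.69%) and 6197 (5.19%), 9.88% together, and with both partners 3724 (3.12%) and 2133 (1.79%), 4.9% together. The differences called with PAM had a median log2 fold change of 0.96, 1.28 and 1.00 in the 3 backgrounds, and those called with zymosan -1.10, -0.67 and -0.74. Scaling by total counts instead of TMM moves the median of all peaks from 0.0043, 0.0037 and 0.0081 to 0.21, 0.48 and 0.30, so directions are relative to the bulk of peaks; the called peaks then lie 86.7%, 97.6% and 96.3% on the PAM side, against 58.4%, 47.5% and 63.6% here. Leaving out 1 library lowered the PAM and zymosan counts most without PS replicate 2 (2296 and 1310 beside SeV), PcG replicate 2 (2823 and 2932 beside 3',3'-cGAMP) and PScG replicate 2 (1518 and 760 beside both).

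Calls had the same direction in all 3 backgrounds at 1270 peaks for PAM (1.06% of the tested peaks) and at 726 for depleted zymosan (0.608%). The first number is 25.4%, 22.7% and 34.1% of the PAM calls in the SeV, 3',3'-cGAMP and combined backgrounds, and the second is 20.4%, 11.7% and 34.0% of the zymosan calls. Of all peaks called in a given background and direction, 86.7% to 95.7% had the same sign in another background. These shares include peaks called in both, whose signs are largely set by the calls. Across all tested peaks the log2 fold changes of 2 backgrounds had a Pearson correlation of 0.34 to 0.38 (n = 119464 peaks, which share 1 scaling and 1 fit), and of 0.68 to 0.70 over the 32123 peaks with a mean of at least 5 CPM. Of the 18742 peaks called in any of the 3 swaps, 13 were called in opposite directions in 2 backgrounds. Only 9 of these 13 passed the test of background dependence described below. With the mitochondrial share as a covariate, which the design ties to the swap, 41 and 9 peaks were called in all 3, although 1212 of the 1270 and 683 of the 726 kept their signs. Without PScG replicate 2 the counts were 729 and 319. Total-count scaling gave 5687 and 92; all 1270 PAM loci and 634 of the 726 zymosan loci then kept their signs, and 92 of the 726 were still called.

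**Figure D1:**
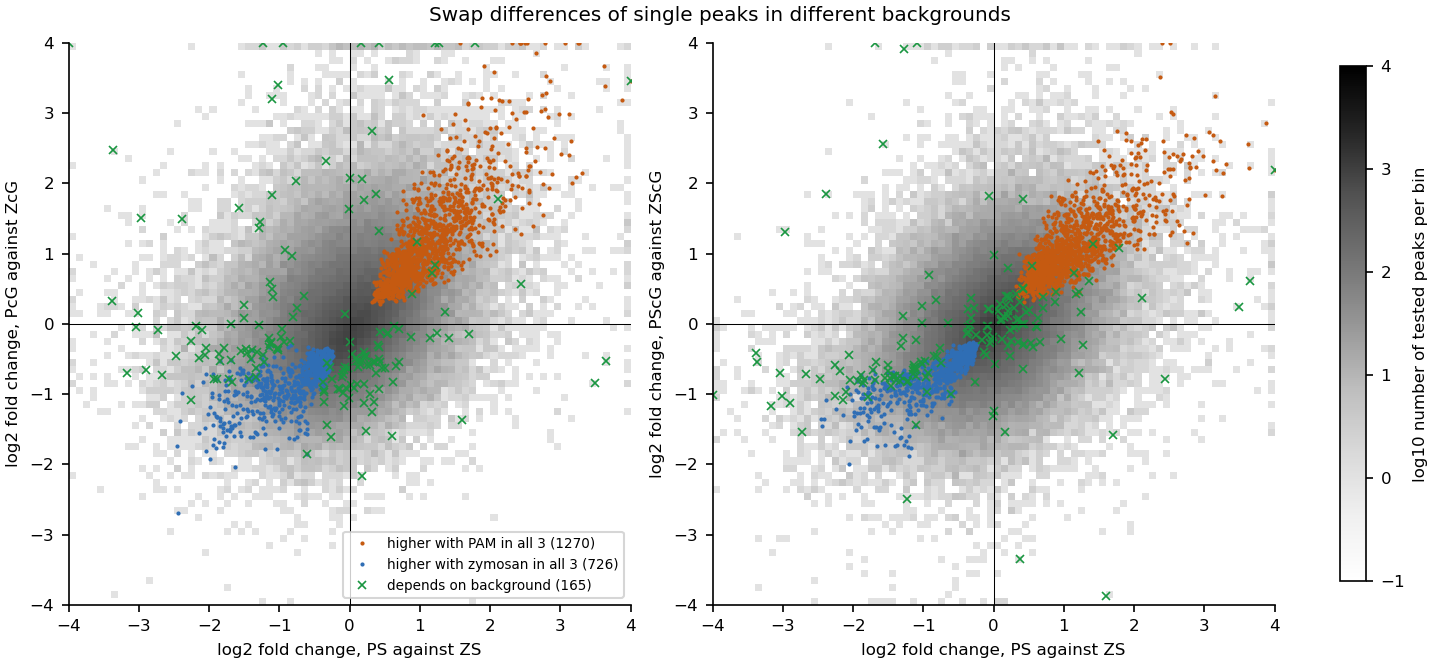
Log2 fold change (PAM over depleted zymosan) of each tested peak beside SeV (x axis) against that beside 3',3'-cGAMP (left) and beside both (right); grey shading counts all 119464 peaks per bin and values past 4 are drawn at the edge. The 1270 orange and 726 blue points were called in the same direction in all 3 backgrounds and so lie in the same-sign quadrants by choice; of the 165 green crosses, where the swap depended on the background, 94 have mixed signs over the 3 swaps.

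The loci higher with PAM in all backgrounds mostly lay away from gene starts, and their strongest members had few counts with zymosan. An intergenic peak at chr10:118495254-118495957, nearest to Ifng, the gene of interferon gamma, at 49360 bp, had 7.72 and 8.92 CPM in PS, 6.37 and 7.08 in PcG and 9.61 and 9.25 in PScG. It had 0.215 and 1.57 CPM in ZS, 0.483 and 1.67 in ZcG and 1.34 and 0.552 in ZScG. All 6 libraries with PAM were above all 6 with zymosan, and the log2 fold changes were 3.15 ± 0.37 (SE), 2.60 ± 0.38 and 3.25 ± 0.39. No overlap within a background was a condition for naming the strongest loci of either direction, so it is no result about them. At a mean of at least 1 CPM, it held for 1267 of the 1270 PAM loci and 724 of the 726 zymosan loci. The peak nearest to Ifng was also near 0 without either ligand, with 0 to 1.67 CPM in the 6 libraries of S, cG and ScG.

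A peak inside Slc1a2, a glutamate transporter gene, at chr2:102757095-102757734, had 9.22 and 9.97 CPM in PS, 8.16 and 7.78 in PcG and 6.91 and 8.32 in PScG. The libraries with zymosan had 0.414 to 1.56 CPM at it, and the log2 fold changes were 3.88 ± 0.37, 3.19 ± 0.37 and 2.87 ± 0.37. The groups did not overlap in any background, as the naming rule asked. A second peak inside Slc1a2, at chr2:102758182-102758659, had up to 5.57 CPM with PAM and 0 to 1.18 with zymosan, without overlap in any background. The peak at chr5:29864179-29864878, nearest to the co-chaperone gene Dnajb6 at 77701 bp, had 9.79 to 18.5 CPM with PAM and 0.668 to 3.58 with zymosan. Its log2 fold changes were 2.85 ± 0.30, 3.46 ± 0.34 and 2.65 ± 0.29.

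The other peaks with the largest weakest fold change lay beside Iqschfp/Schip1, inside Gm5544, beside Dlec1, inside Slco3a1, an organic anion transporter gene, 736176 bp from Myc, the growth-control transcription factor, and inside Cct3, Clvs1 and Atp8a1. Their smallest log2 fold change in any background was 2.39 to 2.73. Several genes held or neighboured more than 1 such locus; those given here were chosen after counts per gene were seen. The protein-coding gene Mrpl39 was nearest to 42 tested peaks, and 9 of these were such loci. These 9 spanned chr16:84608312-84714913 and included the promoter of Mir155hg, the host gene of the inflammatory miR-155. Tnfaip3, which encodes the NF-kappaB inhibitor A20, was nearest to 7 such loci among 66 tested peaks, and Il6 to 6 among 29. Of the 14 peaks nearest to Batf, an AP-1 family factor gene, 5 were such loci, with log2 fold changes of 0.86 to 1.96 beside SeV, 0.91 to 2.36 beside 3',3'-cGAMP and 0.95 to 2.60 beside both.

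The loci higher with depleted zymosan differed from the PAM loci in position, width and level. Of the 726, 51.0% lay within 1 kb of a start site or, where no strand was listed, of a gene end, against 5.59% of the 1270 loci higher with PAM and 13.3% of all tested peaks. Their median width was 1231.5 bp and their median level 28.6 CPM, against 826.5 bp and 9.21 CPM for the PAM loci and 451 bp and 2.14 CPM for all tested peaks. Their differences were smaller, with median log2 fold changes of -0.63, -0.73 and -0.64 against 1.05, 1.04 and 1.03. A deeply covered peak can be called at a smaller difference, and whether depth accounts for the contrast between these medians was not tested. Start-site peaks as a whole also leaned to zymosan. Over all tested peaks at a start site or gene end, the median log2 fold changes were -0.13, -0.19 and -0.13. They were 0.041, 0.055 and 0.045 at all other tested peaks. The part of this lean in the position of the 726 loci was not tested.

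A peak inside Egr1, an immediate early transcription factor gene, at chr18:34862549-34863117, stood at 0.690 and 0.808 CPM in PS against 4.73 and 3.59 in ZS. In PcG it had 0.459 and 0.765 CPM against 3.74 and 4.12 in ZcG, and in PScG 1.53 and 1.85 against 5.14 and 4.14 in ZScG. All zymosan libraries were above all PAM libraries, with log2 fold changes of -2.44 ± 0.48, -2.69 ± 0.51 and -1.45 ± 0.46. The intergenic peak at chr10:11491970-11492340, nearest to the laforin gene Epm2a at 32306 bp, had 2.76 to 4.98 CPM with PAM and 9.25 to 16.4 with zymosan. Its log2 fold changes were -1.81 ± 0.26, -1.76 ± 0.25 and -1.65 ± 0.25. The others named by the same rule lay nearest to or inside Pou2f1, Gask1b, Mrps28, Scrg1, Csmd1, Gm10573, Slc27a6, Sspn, Kcnj3 and Pald1, and their smallest difference in any background was between -1.37 and -1.67.

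Part of the zymosan loci came from the edges of the assembly. On unplaced scaffolds or in the outermost 500 kb of tested peaks of a chromosome lay 66 of the 726 (9.09%), 13 of the 1270 PAM loci (1.02%) and 1.27% of all tested peaks. Of the zymosan loci, 11 lay on unplaced scaffolds, and 5 lay beside Vmn1r2 at chr4:3061860-3091113. Without the edge peaks 660 zymosan loci and 1257 PAM loci were left, and 54.7% and 5.49% of them lay at a start site or gene end.

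**Figure D2:**
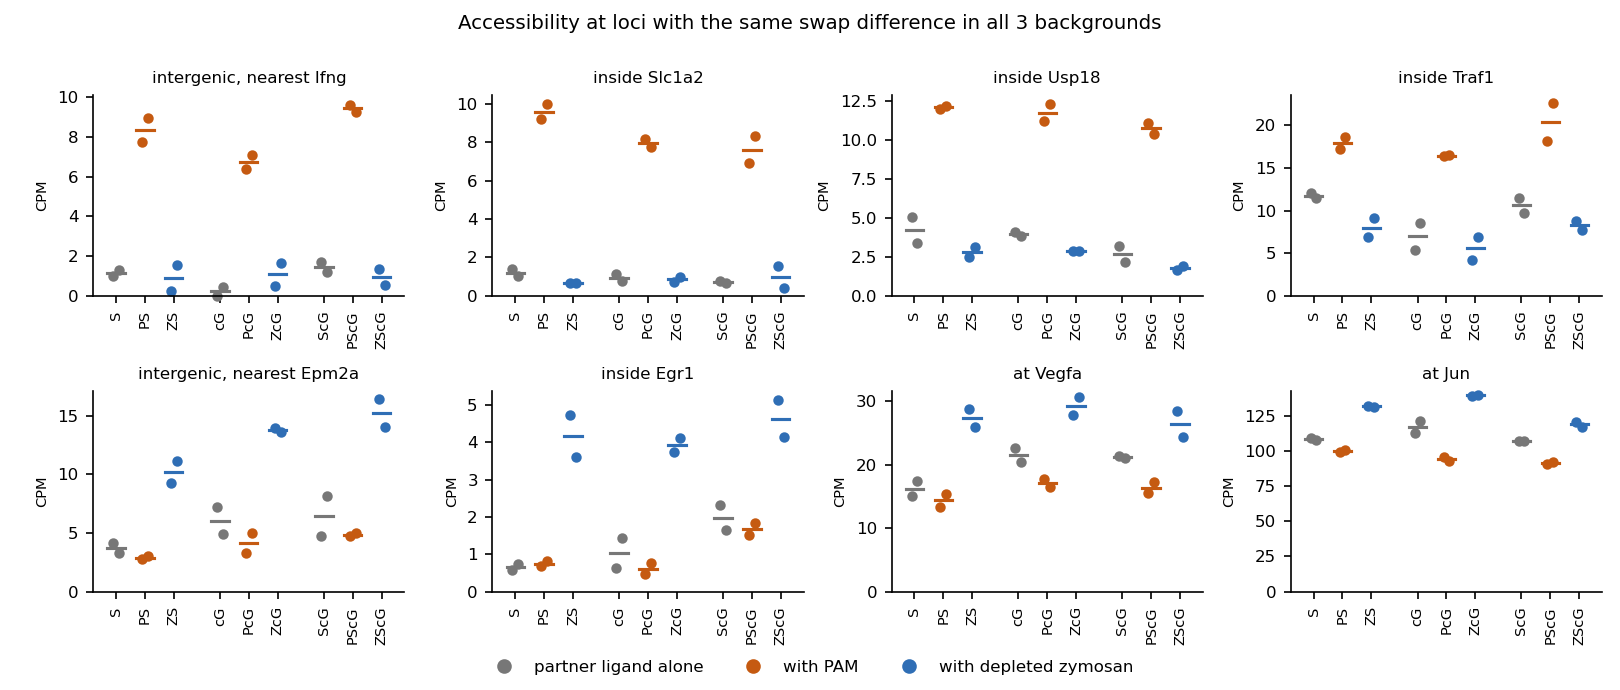
CPM at 8 loci in each library of 9 groups (points; bars are the mean of 2 libraries), grouped by partner: SeV (S), 3',3'-cGAMP (cG) and both (ScG). In the upper 4 panels all libraries with PAM lie above all libraries with zymosan of the same background, and in the lower 4 panels the order is the opposite. The peaks near Ifng and Epm2a and inside Slc1a2 and Egr1 were chosen on this condition. At the peaks near Ifng and inside Slc1a2 the zymosan libraries lie at 0.215 to 1.67 CPM.

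Libraries outside the 3 swaps carried the same difference in P against Z, although they shared the filter, scaling and fit behind the calls. In P against Z, where each ligand was given alone, 909 of the 1270 PAM loci were higher with PAM (71.6%, against 5.11% of all tested peaks) and 3 were lower, with a median log2 fold change of 0.90. Of the 726 zymosan loci, 606 were higher with zymosan in those libraries (83.5%, against 5.99%) and none was lower, with a median of -0.62. P and Z also differ in mitochondrial share, at 48.5% to 50.5% against 60.9% to 62.4%. The median of all tested peaks was -0.01.

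Further additions of 1 ligand are given with their mitochondrial shares; these comparisons were chosen after values were seen. Adding PAM to the ligand labelled HMW (PH against H, 48.7% to 53.4% mitochondrial) raised 981 of the 1270 PAM loci (77.2%, against 5.28% of all tested peaks) and lowered 0, with a median of 1.02. In PH against H, PAM lowered 229 of the 726 zymosan loci (31.5%, against 2.27%) and raised 2, with a median of -0.30. Adding zymosan to unstimulated cells (Z against control, 60.1% to 62.4% mitochondrial) raised 353 of the PAM loci (27.8%, against 4.16%) and lowered 24 (against 1.75%), with a median of 0.39. It raised 56 of the zymosan loci (7.71%, against 4.16%) and lowered 9, with a median of 0.04. Beside LPS, itself a Toll-like receptor ligand, PAM raised 148 of the 1270 PAM loci in PL against L (11.7%, against 0.765%) and 55 in PLH against LH (4.33%, against 0.343%). The zymosan loci were not lowered as a set there. In PL against L, 14 of the 726 were raised (1.93%, against 0.765%) and 5 lowered (0.689%, against 0.362%). In PLH against LH, 30 were raised (4.13%, against 0.343%) and 4 lowered (0.551%, against 0.203%). The mitochondrial share differed without overlap in both, at 49.4% and 53.8% in PL against 44.6% and 44.1% in L, and at 46.9% and 48.0% in PLH against 49.8% and 53.4% in LH. Whether the response to PAM differs between these settings was not tested.

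**Figure D3:**
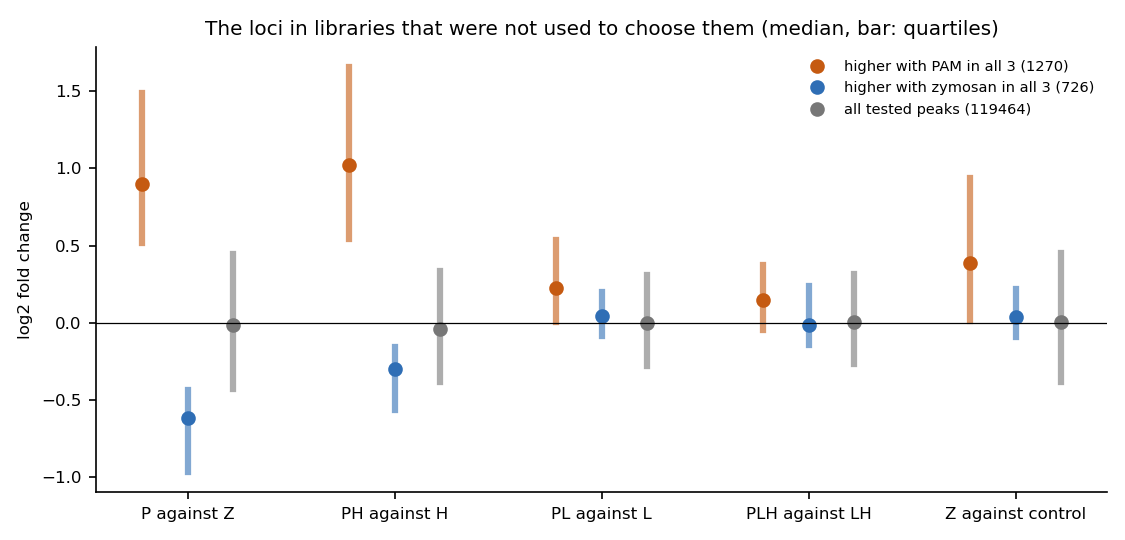
Median (point) and quartiles (bar) of the log2 fold change over the 1270 loci higher with PAM, the 726 higher with zymosan and all tested peaks, in 5 comparisons whose libraries were not used to choose the loci. The PAM loci have medians of 0.90 in P against Z and 1.02 in PH against H and 0.23 in PL against L; the zymosan loci have medians of -0.62, -0.30 and 0.04.

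Set against the partner alone, most PAM loci were higher in the PAM arm, and zymosan loci were called in both arms. These comparisons share libraries with the choice of loci, so their directions are partly fixed by it and are given as a description. Of the 1270 PAM loci, 813 were higher in PS than in S (2.44% of all tested peaks were) and 134 lower in ZS than in S (1%). Beside 3',3'-cGAMP, 940 were higher in PcG than in cG (5.59% of all) and 107 lower in ZcG (1.04%), and beside both, 771 were higher in PScG than in ScG (2.11%) and 40 lower in ZScG (0.448%).

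Of the 726 zymosan loci, 306 were higher in ZS than in S (1.52% of all tested peaks were) and 58 lower in PS than in S (0.492%). Beside 3',3'-cGAMP, 393 were higher in ZcG (1.82%) and 192 lower in PcG (3.52%) than in cG. Beside both partners, 104 were higher in ZScG (0.324%) and 392 lower in PScG (2.42%) than in ScG. ScG had a mitochondrial share of 57.3% and 61.5%, near that of the zymosan groups, while S and cG had 45.0% to 48.7%, near that of the PAM groups. The part of this share in the counts was not tested.

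Of the PAM loci, 3 were called the other way in P against Z. The peak over a gene end of Mx1, which RefSeq lists as a transcribed pseudogene in this assembly, 849 bp from Bace2, at chr16:97443785-97449053, was higher with PAM in all 3 backgrounds, by 0.45 ± 0.13, 0.79 ± 0.13 and 0.59 ± 0.13, yet lower in P than in Z by -0.96 ± 0.14. Mx1 is known as an interferon-induced gene. The Ifi205 promoter, whose sequence with its ISRE letters is shown above, had 31.2 to 39.8 CPM with PAM and lower values in all zymosan libraries; its log2 fold changes were 0.44, 0.57 and 0.45 with partners and -0.68 in P against Z. A peak beside Prdx1, which encodes an antioxidant peroxidase, changed by 0.83, 0.72 and 1.01 with partners and by -0.82 in P against Z. The difference between the swap with and without partners was not tested, and these 3 loci were picked after their values were seen.

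The promoters shown above can now be read with their values. The Il6 promoter had 25.5 and 30.9 CPM in PS against 16.8 and 17.97 in ZS, 28.04 and 28.8 in PcG against 17.5 and 19.4 in ZcG, and 25.9 and 28.1 in PScG against 19.6 and 16.1 in ZScG. Its log2 fold changes were 0.70 ± 0.14, 0.62 ± 0.14 and 0.59 ± 0.15, with adjusted p of 9.4e-05, 0.00071 and 0.0048 by edgeR, and no libraries overlapped. The Nfkb2 promoter, with 82.6 to 116 CPM with PAM and 67.7 to 90.6 with zymosan, changed by 0.44, 0.28 and 0.31, and the Ebi3 promoter by 0.78, 0.56 and 0.55. In the other direction the Retreg1 promoter had 12.4 to 15.2 CPM with PAM and 17.0 to 33.1 with zymosan, with log2 fold changes of -0.75 ± 0.14, -1.11 ± 0.15 and -0.55 ± 0.16. The Ddit3 promoter changed by -0.31 ± 0.09, -0.48 ± 0.09 and -0.34 ± 0.09. The peak at Ddit3 also overlaps a promoter window of Mbd6, and the peak at Nfkb2 one of 4833438C02Rik.

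The motif letters were counted over all RefSeq windows of the same length. The NF-kappaB letters stood in 18 of the 62 windows under PAM loci (29.0%), 25.4% of the 422 under zymosan loci, 23.0% of the 14342 under any tested peak and 17.6% of all 32851. The AP-1 letters stood in 14.5%, 6.16%, 4.88% and 6.75% of these sets, and the ISRE letters in 6.45%, 1.90%, 2.81% and 2.98%. The CRE letters stood in 0 of the 62, in 25 of the 422 (5.92%), in 2.64% and in 1.55%. The EGR letters, GCGNGGGCG, stood in 3.23%, 13.3%, 8.81% and 4.70%, and the median GC content of the windows was 48.4%, 64.6%, 60.0% and 52.4%. Windows of 1 gene can overlap, and GC content, which differs between the sets, changes the chance of each motif; neither was corrected for.

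Gene lists, read through peaks inside a gene or within 1 kb of its start (of either end where no start site is listed), showed where the swap fell among known pathways. They are given for the mean of the 3 swaps, in which 12.1% of the tested peaks were higher with PAM and 10% with zymosan (22.2% in all) and the median log2 fold change was 0.0039. In the TLR2 pathway, 31 of 140 peaks (22.1%) were higher with PAM and 7 with zymosan (median 0.22). Ikbkb, the IkB kinase beta gene, had 16.3 to 25.0 CPM with PAM and 8.68 to 11.2 with zymosan at chr8:22657792-22659402. Irak2, a kinase gene downstream of MyD88, had 4.06 to 5.93 CPM with PAM and 0.557 to 1.94 with zymosan at a peak inside the gene, a mean difference of 2.09 ± 0.22.

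In the Dectin-1 pathway, 29 of 200 peaks were higher with PAM (14.5%, near the 12.1% of all tested peaks) and 6 with zymosan (median 0.16). A peak inside Syk, the kinase gene below Dectin-1, at chr13:52599735-52600836, had 31.5 and 31.8 CPM in PS against 15.1 and 14.6 in ZS, 27.3 and 32.5 in PcG against 19.7 and 13.1 in ZcG, and 30.6 and 26.8 in PScG against 12.0 and 13.9 in ZScG. Its log2 fold changes were 1.10 ± 0.14, 0.87 ± 0.14 and 1.15 ± 0.15. Peaks inside Vav2, an exchange factor gene, Fcer1g, an adaptor chain gene, and Ptpn6, a phosphatase gene, changed by 1.27, 1.59 and 0.90 in the mean swap.

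The inflammatory list had the highest share of peaks higher with PAM of the 13 lists, 75 of 198 (37.9%) against 7 (median 0.36). Beside SeV, 3',3'-cGAMP and both, 30, 49 and 19 of its peaks were higher with PAM (4.18%, 4.69% and 3.12% of all tested peaks were) and 6, 3 and 0 with zymosan (2.98%, 5.19% and 1.79%). A peak inside Traf1, an adaptor of the TNF receptors, at chr2:34953559-34954884, had 16.4 to 22.6 CPM with PAM and 4.22 to 9.12 with zymosan. The promoter of Lcn2, which encodes an iron-binding antibacterial protein, had 8.56 to 12.0 CPM against 2.17 to 5.16, with log2 fold changes of 1.34 ± 0.23, 1.87 ± 0.27 and 1.58 ± 0.26. A peak inside Nfkb1, an NF-kappaB subunit gene, changed by 1.21, 1.14 and 1.18. The large peak over Acod1, which encodes the enzyme that makes itaconate, had 232 to 314 CPM with PAM and 139 to 205 with zymosan. Its differences were 0.89 beside SeV, 0.42 beside 3',3'-cGAMP and 0.46 beside both. These differed by the test of background dependence described below (adjusted p = 0.040, edgeR).

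The interferon list had fewer calls than the share of all tested peaks in both directions, with 21 of 260 peaks higher with PAM (8.08%, against 12.1%) and 14 with zymosan (5.38%, against 10%) and a median of 0.03. A peak inside Usp18, a negative regulator of interferon signalling, at chr6:121249901-121250599, had 11.98 and 12.2 CPM in PS, 11.2 and 12.3 in PcG and 11.04 and 10.4 in PScG against 1.68 to 3.13 in the zymosan libraries. The groups did not overlap, with log2 fold changes of 2.09 ± 0.26, 2.01 ± 0.27 and 2.57 ± 0.31. The peak at the chemokine gene Ccl5 and its neighbour Heatr9 had 82.2 to 129 CPM with PAM and 49.4 to 83.1 with zymosan, without overlap within a background. Its difference was 1.17 beside SeV, 0.72 beside 3',3'-cGAMP and 0.43 beside both, and these differed by the test of background dependence described below (adjusted p = 0.012, edgeR). The peak at Isg20, an interferon-induced exonuclease gene, was lower with PAM by -0.38 and -0.53 beside the single partners, and its value beside both was -0.24 (adjusted p = 0.17, edgeR).

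In the mean swap the AP-1 and EGR and NFAT lists had more peaks higher with zymosan than with PAM. Of 52 AP-1 peaks, 16 were higher with zymosan (30.8%, against 10% of all tested peaks) and 5 with PAM (median -0.19), and of 94 EGR and NFAT peaks, 20 (21.3%) against 8 (median -0.12). Over all tested peaks within 1 kb of a start site or gene end, the median in the mean swap was -0.16. Such peaks made up 38.1% of all zymosan calls and 13.3% of all tested peaks. The part of peak position in these list counts was not tested. Among the loci called in all 3 backgrounds, the AP-1 list had 3 for PAM, all at Batf, and 2 for zymosan, and the EGR and NFAT list had 1 and 1. The peak at Jun had 91.0 to 101 CPM with PAM and 117 to 140 with zymosan, and the peak at Jund 67.6 to 71.7 against 89.4 to 97.6. A peak inside Fosb had 0.714 to 1.44 CPM against 2.17 to 6.08, with a mean difference of -1.83 ± 0.27. Batf went the other way, and its peak at chr12:85704475-85706349 had 59.9 to 72.8 CPM with PAM and 30.3 to 36.3 with zymosan. Nr4a2, a nuclear receptor gene induced early after stimulation, changed by -0.60 and Nab2, a corepressor of EGR factors, by -0.44 in the mean swap, while a peak inside Nfatc2 changed by 0.78.

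Among the other lists, dendritic cell maturation had 30 of 132 peaks (22.7%) higher with PAM and 2 with zymosan (median 0.24), with the costimulatory receptor gene Cd40 at 32.7 to 40.3 CPM against 22.8 to 28.8 and peaks inside Cd274, Cd200 and Cd83 changed by 0.64, 1.11 and 0.96. The feedback list had 23 of 90 (25.6%) against 6 (median 0.14), with Dusp16 at 1.55, Tnip1 at 0.78 and Socs3 at 0.43 higher with PAM and Spry2, an inhibitor of growth factor signalling, at -0.58. The lysosome and phagosome list had 42 of 189 (22.2%) against 12 (median 0.15), with Cybb, an NADPH oxidase subunit gene, at 0.60 and Mitf, a transcription factor gene, at 2.61 ± 0.39. That Mitf peak had few counts, with 1.49 to 3.19 CPM with PAM and 0 to 0.645 with zymosan. Other peaks inside Mitf called in all 3 backgrounds changed by 1.20 and 1.33. The glycolysis and HIF list was divided, 18 against 15 of 127 (median -0.00029): Pfkfb3, a glycolytic regulator, had 23.1 to 32.8 CPM with PAM and 8.27 to 13.4 with zymosan, and the angiogenic factor gene Vegfa 13.4 to 17.8 against 24.4 to 30.7. In that list a peak inside Hk2 changed by 1.01 and the peak at Bnip3 by -0.47.

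The remaining lists were closer to the shares of all tested peaks for PAM or held few calls. The cholesterol and LXR list had 14 of 91 peaks higher with PAM and 7 with zymosan (median 0.17), with Abca1 at 0.55 and Mylip at 0.72 and with Hmgcs1 at -0.36. In that list Insig1 was at -0.32, which turns to 0.0081 with total-count scaling. The MHC class II list had 6 against 4 of 45 (median 0.06). The peak shared by H2-DMa and Brd2 was at -0.31, which turns to 0.021 with total-count scaling, and peaks inside Ctss and Ciita were at 0.84 and 0.51. H2-DMb1 was at 1.04, which turns to -0.014 with the mitochondrial share as a covariate. Of 43 ribosomal protein peaks, 1 was higher with PAM (2.33%, against 12.1% of all tested peaks) and 8 with zymosan (18.6%, against 10%). The median was -0.04. The part of peak position in these counts was not tested. Rps12 was at -0.39, Rps23 at -0.36, Rpl7 at -0.31, which turns to 0.015 with total-count scaling, and Rps9 at 0.54.

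**Figure D4:**
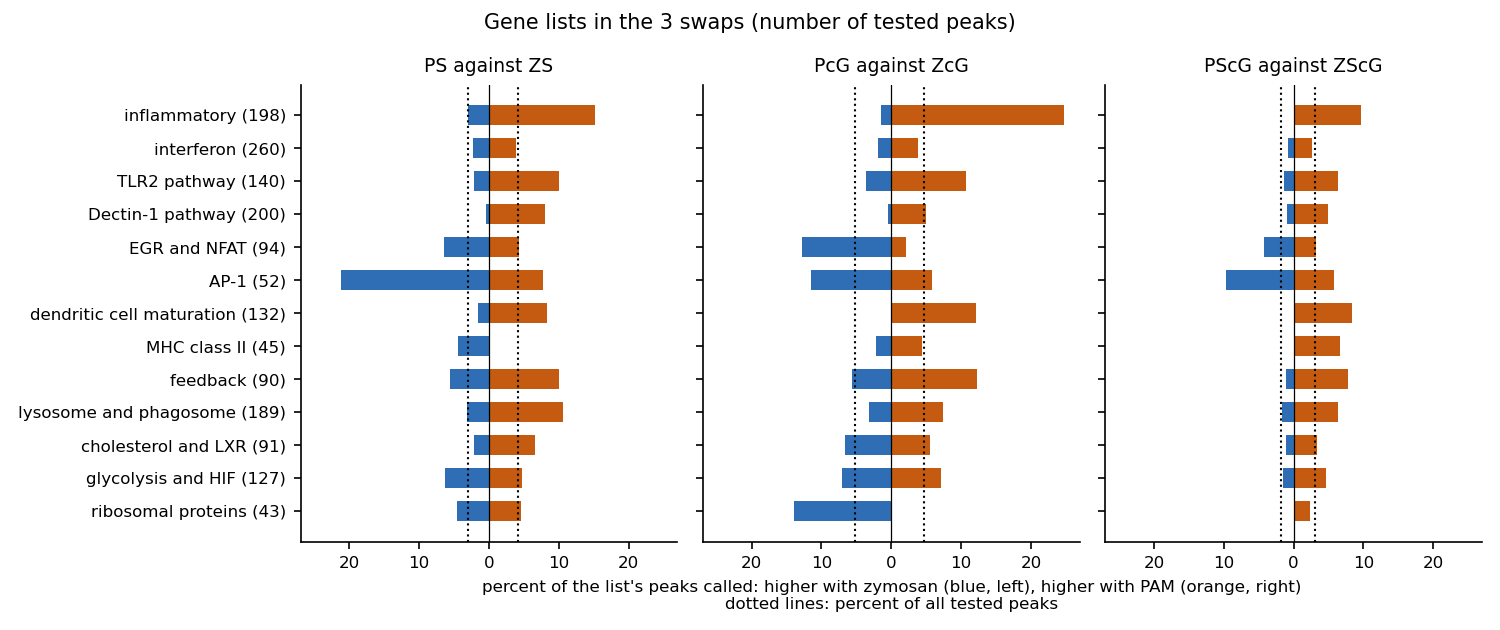
Percent of each list's peaks called higher with PAM (orange, right) and higher with zymosan (blue, left) in each of the 3 swaps, with the percent of all tested peaks as dotted lines. The inflammatory list reaches 15.2% and 24.7% for PAM beside the single partners; the AP-1 list reaches 21.2%, 11.5% and 9.62% for zymosan.

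The swap depended on the background at few loci. A test with 2 degrees of freedom, which asks whether the 3 swap differences are equal, called 165 peaks (0.138% of the tested peaks) at an adjusted p under 0.05 by edgeR, and 11142 peaks had an unadjusted p under 0.05. In separate tests of each pair, the swap beside SeV differed from that beside 3',3'-cGAMP at 221 peaks (0.185%), that beside both from that beside SeV at 8 (0.0067%) and that beside both from that beside 3',3'-cGAMP at 14 (0.0117%). At 107 of the 165 the difference beside both partners lay between the other 2. The swap was largest beside SeV at 78, beside 3',3'-cGAMP at 76 and beside both at 11. Of the 165 peaks, 14 lay at the edges of the assembly, and 20 also belonged to the 1996 loci of the same direction, where only the size of the difference depended on the background. Without PcG replicate 2, 49 peaks were called, with the mitochondrial share as a covariate 77, with the 12 libraries alone 249 and with total-count scaling 309. A peak that missed this test is not shown to respond alike.

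At the peak spanning a gene end of Nos2, the inducible nitric oxide synthase gene, and Lgals9, at chr11:78959292-78963606, the order of the ligands turned. Beside SeV it had 7.90 and 6.62 CPM with PAM and 11.2 and 15.9 with zymosan, a log2 fold change of -0.92 ± 0.19. Beside 3',3'-cGAMP it had 20.8 and 20.5 against 9.66 and 10.2 (1.05 ± 0.19), and beside both 20.2 and 14.5 against 10.5 and 10.9 (0.69 ± 0.20). The PAM libraries were the lower ones beside SeV and the higher ones in the other 2 backgrounds, with no overlap in any. The adjusted p for dependence was 3.1e-07 by edgeR.

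A peak inside Cldn14, a tight junction gene, at chr16:93992371-93993397, had 1.51 and 1.62 CPM in PS against 13.4 and 12.1 in ZS. It had 4.69 and 5.04 in PcG against 4.22 and 4.45 in ZcG, and 7.18 and 5.55 in PScG against 13.5 and 12.3 in ZScG. The zymosan libraries were high only where SeV was present, and the differences were -3.01 ± 0.29, 0.16 ± 0.30 and -1.03 ± 0.26. A peak inside Tnfsf15, the gene of the cytokine TL1A, at chr4:63722585-63728894, had 73.5 and 59.5 CPM in PS against 26.9 and 24.9 in ZS, a difference of 1.36 ± 0.12. Its difference was 0.17 ± 0.12 beside 3',3'-cGAMP, with 44.1 and 37.4 against 38.1 and 34.5, and 0.61 ± 0.13 beside both. A peak on the scaffold chr4_JH584292_random had differences of -2.27, -0.25 and -1.03.

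Beside both partners, the promoter peak of Hsd11b1, which encodes the enzyme that regenerates active glucocorticoid, had 17.2 and 16.0 CPM with PAM and 6.70 and 10.3 with zymosan, a difference of 0.98 ± 0.17. Its libraries overlapped in the SeV background, with 18.01 and 16.0 against 16.1 and 17.4, and the difference beside 3',3'-cGAMP was -0.26 ± 0.14. A peak inside Rras2, a small GTPase gene, was higher with PAM beside SeV by 2.44 ± 0.44, and its value beside both was -0.79 ± 0.37. A peak inside Gramd1b had -0.49 beside 3',3'-cGAMP and 0.28 beside both, and a second peak inside Slco3a1 had 3.47 and -0.33. At a peak inside Cep350 both ZcG libraries had 0 counts against 44 and 17 in PcG, so that PAM was at least 9.95-fold higher over the group (floor of 3 counts), while its value beside both was -0.69. The peaks at assembly edges, nearest to B230307C23Rik and Asmt, had their largest differences beside SeV, at -1.71 and -2.68.

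The other peaks called in opposite directions with the lowest p all differed between the single partners. The peak beside Oasl1, an interferon-inducible gene of the oligoadenylate synthetase-like family, at chr5:114938073-114940708, had 23.02 and 19.99 CPM in PS against 11.9 and 14.3 in ZS, and 12.3 and 12.8 in PcG against 18.5 and 18.1 in ZcG. Its differences were 0.71 ± 0.17, -0.54 ± 0.18 and 0.23 ± 0.18. The same turn was seen at Med13l (0.61 and -0.83), Cyp2u1 (0.66 and -0.60) and Adgb (0.51 and -0.63), and the reverse turn at Tldc2 (-0.66 and 0.39). At these 5 peaks the difference beside both partners was between -0.26 and 0.23 and was not called.

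**Figure D5:**
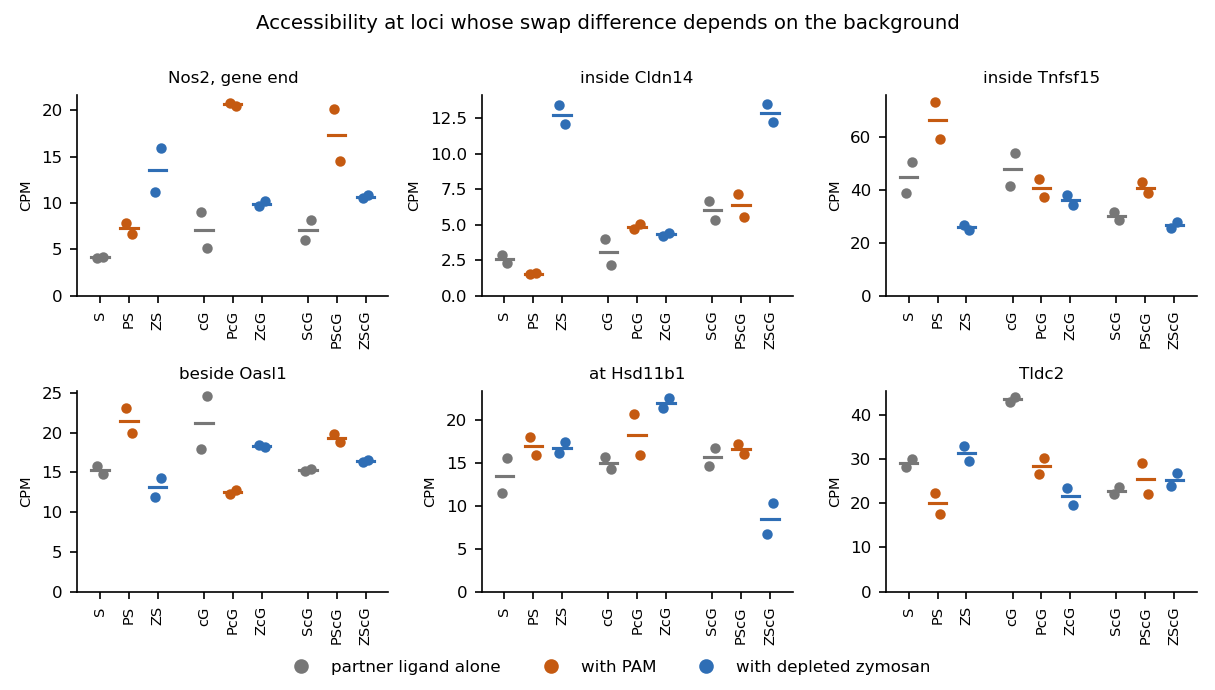
CPM in each library (points; bars are the mean of 2 libraries) at 6 loci whose swap difference passed the test of background dependence, in the same 9 groups as above. At Nos2 zymosan is higher beside SeV and PAM beside 3',3'-cGAMP; at Cldn14 the ZS and ZScG libraries lie at 12.1 to 13.5 CPM and the PS libraries at 1.51 and 1.62; at Hsd11b1 only the ZScG libraries are low, at 6.70 and 10.3.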

How the data were processed

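The authors deposited raw counts per peak (whole numbers, not normalized) for 119751 peaks in 36 libraries, and a list of peak positions on mm10. The submitters' processing notes name Bowtie2 2.2.9, MACS2 (given as version 1.4), bedtools and featureCounts, with no role or order; handling of duplicates and pooling for peak calling are not given in the sources used here. Total counts ranged from 19097027 to 39977088. The peak over the mitochondrial genome was left out, filterByExpr (minimum count 10) removed 286 peaks, and counts were scaled by TMM. All 36 libraries in 18 groups were fitted in edgeR 4.0.16 (R 4.3.3) by quasi-likelihood with 18 residual degrees of freedom; p-values were adjusted by Benjamini-Hochberg over 119464 peaks, with SE as the fold change over the root of F. The procedure was tested on simulated data. Alternatives were total-count and DESeq2 1.42.0 scaling, DESeq2's Wald test, abundance-dependent offsets, no filter, the mitochondrial share as a covariate, the 12 libraries alone, thinning, a replicate block, another threshold, a 10 kb window and leaving out each library. The fold bound covers counting error only.

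Peaks were joined to RefSeq genes of GRCm38.p6 (start sites listed for 27025 genes). The members, the lists and the naming rule were chosen with earlier results of these data known. Named were the 12 loci of each direction with the largest weakest fold change, at a mean of at least 1 CPM and without overlap of libraries; 4 dependent loci per pair of backgrounds and up to 6 opposite ones; and up to 4 genes a list by lowest p. Peak-centre sequences planned under this rule were not used here. Replicate numbers did not pair libraries (correlations of deviations -0.012 to 0.017). Replicates differed by more than sampling noise. Results for some list and marker genes are not reported here.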

Additional observations from a re-analysis of the deposited data

Results flagged for a closer look

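Results are listed here because a test of the difference itself separated backgrounds. The 2 degree of freedom test called 165 peaks. The swap beside SeV exceeded that beside 3',3'-cGAMP at 110 peaks and fell below it at 111 (18 and 483 with total-count scaling, and 34 above with abundance-dependent offsets); beside both partners it exceeded that beside SeV at 6 and fell below it at 2, and exceeded that beside 3',3'-cGAMP at 9 and fell below it at 5.

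For single peaks the difference of log2 fold changes, SeV minus 3',3'-cGAMP, was -3.18 at Cldn14, -1.97 at Nos2/Lgals9, 1.19 at Tnfsf15, -2.02 on the scaffold chr4_JH584292_random, -1.05 at Tldc2, 1.44 at Med13l, 1.25 at Oasl1, 1.27 at Cyp2u1 and 1.14 at Adgb. Both partners minus SeV gave -3.23 at Rras2, 1.06 at B230307C23Rik and 1.96 at Asmt. Both partners minus 3',3'-cGAMP gave 1.24 at Hsd11b1, 0.77 at Gramd1b, -3.81 at Slco3a1 and -8.16 at Cep350, the last being a fitted value against a group with 0 counts and no bound.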

How the results depend on the processing

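Each alternative changed 1 choice, except that DESeq2's Wald test brought its own size factors and the 12 libraries alone their own filter. DESeq2's size factors, keeping low counts or the mitochondrial peak and the replicate block moved none of the 19 counts by over 1.5 times; the block gave 1244 shared PAM calls of the 1270 and 718 of the 726 and left all 92 named peaks on their side of the threshold. The replicate numbers do not pair the libraries. With the mitochondrial share as a covariate the same-direction counts became 41 for PAM and 9 for zymosan, while 1212 of 1270 and 683 of 726 loci kept their signs; the median SE of the named peaks rose from 0.13 to 0.36, 60 of the 92 named peaks lost their call and 1 turned; with total counts 12 lost it and 3 turned. Calls for PAM and zymosan were then 1133 and 759 beside SeV, 99 and 50 beside 3',3'-cGAMP, 147 and 47 beside both, 344 and 151 in the mean swap and 800 and 830 in P against Z; dependence fell to 77, with 15 and 49 between the single partners, 18 above for both against SeV, and 17 and 11 for both against 3',3'-cGAMP. Total counts gave 11480 and 1757, 26618 and 661, 13432 and 515, 40172 and 2669, and 18592 and 1914 in the same order, 5687 and 92 in all 3, and 309 for dependence, with 18 and 483, 26 and 1, and 0 and 14; H2-DMa turned to 0.021, Insig1 to 0.0081 and Rpl7 to 0.015, and with the covariate H2-DMb1 to -0.014. An adjusted p under 0.01 left 651 and 323 in all 3. The 12 libraries alone gave 249 for dependence, 185 below between the single partners, 30 and 8 for both against SeV and 11 below against 3',3'-cGAMP. The other moved counts were small: abundance-dependent offsets gave 34, 1 and 1 (SeV above 3',3'-cGAMP, both below SeV, both above 3',3'-cGAMP), DESeq2's Wald test 1 and 1, and 14 and 3, and thinning 3 and 6, and 5. Abundance-dependent offsets put 57.6% of the 3',3'-cGAMP calls on the PAM side. Leaving out 1 library gave 2296 to 5319 and 1310 to 3622 beside SeV, 2823 to 5719 and 2932 to 6282 beside 3',3'-cGAMP, 1518 to 3810 and 760 to 2183 beside both, 12028 to 13417 and 9874 to 10839 in the mean swap, 5964 to 6777 and 6413 to 7300 in P against Z, 729 to 1041 and 319 to 599 in all 3, and 49 to 164 for dependence, lowest without PcG replicate 2. Pairwise differences then ranged from 17 to 124 and 24 to 117, 0 to 23 and 0 to 11, and 1 to 10 and 0 to 6. All 1996 loci kept their signs in each of these 12 fits. Leaving out peaks at assembly edges, chosen after seeing the data, gave 1257, 660 and 151. In the fits without a library the lone library of its group is assumed to vary like the other groups. The cause of these shifts was not tested. The depth limits calls of small differences at peaks of few counts.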

Other observations

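Assembly-edge peaks also set libraries apart beyond the swap. Their summed level was 63660 and 65248 CPM in ZScG and 44384 to 47490 in ZS and ZcG, against 24181 to 31934 in PS and PcG. PScG lay at 38497 and 47261, and ScG, with no swapped ligand, at 42349 and 50433.

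Among the tenth of peaks with the most counts (median 25.3 CPM), 652 were higher with PAM and 3223 with zymosan beside 3',3'-cGAMP, against 1147 and 1092 beside SeV and 910 and 1069 beside both. Whether the backgrounds differ in this was not tested, and with abundance-dependent offsets 57.6% of all calls beside 3',3'-cGAMP were on the PAM side, against 47.5%.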
